A study of Mus musculus with 167 samples.

Results

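Mouse embryonic fibroblasts transduced with Spi1 (PU.1), Irf8 and Batf3, a combination called PIB, were sorted 9 days later for the reporter tdTomato and for CD45, and their RNA was set against that of untransduced fibroblasts of the same line. The 9 libraries, 5 of PIB day 9 cells and 4 of fibroblasts, were chosen by their titles and make up 5.39% of the libraries and 2 of the 41 groups of the series. Of 57010 gene identifiers in the count table, 15776 had enough counts to be tested, and 9546 of those reached a mean of 10 CPM or more (counts scaled to a library of fixed size) in either group.

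Both groups came from C9a.MEF, fibroblasts with Cre in both copies of Clec9a and tdTomato in both copies of Rosa26, so that cells which switch on the Clec9a locus become red. PIB day 9 cells were DAPI-negative, tdT+ and CD45+, and fibroblasts were DAPI-negative, tdT- and CD45-, with no virus and no day given. The transduced cells were grown in DMEM with serum on gelatin. For context, values are also given for double positive PIB cells of days 3 and 6 (n = 4 each) and for double positive day 9 cells of the same line that received Spi1, Irf4 and Prdm1 (PIP, n = 4). Others are from splenic conventional dendritic cells of type 1 from wild-type mice (cDC1, n = 3). Transduction, time in culture and the sort gate cannot be told apart in this design, and the labels do not say whether replicates came from separate cultures, so p-values measure the spread between these libraries, which may be technical.

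PU.1 is an ETS family factor that opens myeloid enhancers, and it binds many of them together with IRF8. BATF3 is an AP-1 family factor needed for the cDC1 lineage, which takes up dead cells and presents their antigens to CD8 T cells. Fibroblasts are the opposite pole: they make collagen, fibronectin and growth factors, pull on their matrix through contractile fibres, and divide in culture.

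Total counts ran from 8970556 to 13506168 per PIB library and from 10878799 to 12968294 per fibroblast library, so 3 counts amounted to at most 0.334 CPM and 0.276 CPM. The transduced factors followed the labels: Spi1 had 168, 179.6, 171, 179 and 268 CPM in PIB cells, against 1.15, 1.22, 1.37 and 0.907 CPM in fibroblasts. Irf8 averaged 170.3 CPM in PIB cells against 1.07 CPM in fibroblasts, and Batf3 22.7 CPM in PIB cells against 0.209 CPM in fibroblasts, and PIB replicate 5 was highest for all 3 factors. Reads from the vector and from the cells' own copies cannot be told apart. Clec9a itself had 0 or 1 count per PIB library and 0 in fibroblasts, against 649 to 659 CPM in splenic cDC1, whose Clec9a locus is wild type. One library stood apart. PIB replicate 5 had 314 genes, 3.29% of the 9546, at least 2-fold from the mean of the other 4 libraries, against 18 to 64 genes for each of those. Its mitochondrially encoded share was 0.407% of counts, against 0.905 to 0.997% in the other PIB libraries and 0.474 to 0.583% in fibroblasts.

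A gene was called where edgeR's quasi-likelihood test gave a Benjamini-Hochberg adjusted p under 0.05 over all 15776 genes and the change was at least 2-fold. Levels are CPM scaled by TMM factors, means carry the standard deviation (n = 5 and 4), and log2 fold changes, PIB day 9 cells over fibroblasts, carry their standard error. CPM are not corrected for gene length, so an order of genes by CPM also follows their length. PIB cells named without a day are the day 9 cells.

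Marker lists were used to check the identity of the cells. Of 12 tested fibroblast markers 9 were lower and none higher, yet their summed level was still 22060 to 24100 CPM in PIB day 9 cells, against 27510 to 28900 CPM in fibroblasts. Of 10 tested cDC1 markers 8 were higher and 1 lower, with sums of 842 to 1029 CPM in PIB cells against 149.2 to 167.7 CPM in fibroblasts. The transduced Irf8 and Batf3 are among the 8 and within these sums, so their part is no check of identity. The other members, Clec9a and Itgae, were too low to be tested. Itgae had 11 counts over the 5 PIB libraries, against 1848 over the 3 libraries of splenic cDC1. Of 10 tested macrophage and monocyte markers 9 were higher, with sums of 915 to 1267 CPM in PIB cells against 10.6 to 12.2 CPM in fibroblasts. Adgre1, C1qa, Ly6c2 and Vsig4 of that list were too low to be tested. Fcgr1, an Fc receptor, was not tested either: it had 18.2 CPM in PIB replicate 5, 0.257 to 0.478 CPM in the other 4 PIB libraries and at most 0.274 CPM in fibroblasts. Of 11 tested general leukocyte markers 10 were higher, with sums of 1293 to 2177 CPM in PIB cells against 7.83 to 11.3 CPM in fibroblasts. Among the 10 is Ptprc, which codes for the CD45 that the cells were sorted for. Lists for B cells and for T and NK cells summed to at most 1.52 and 1.71 CPM in any PIB library, and that for granulocytes and mast cells to at most 10.1 CPM, through S100a8. Lists for erythroid, endothelial, epithelial, muscle, skeletal and neural cells summed to at most 25.8 CPM in any PIB library and 36.5 CPM in any fibroblast library. The part of other cell types in the results was not tested. In bulk RNA, fewer cells of a type and less RNA per cell cannot be told apart.

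Gains and losses were nearly equal in number and unequal in shape. Among the 9546 genes 974 (10.2%) were higher and 886 (9.28%) were lower in PIB day 9 cells, and without PIB replicate 5 the counts were 952 and 909. The whole tested set held 1644 higher genes (10.4%) and 1794 lower ones (11.4%). The gains reached much further than the losses: 380 genes were at least 4-fold higher and 77 at least 64-fold higher, while 353 were at least 4-fold lower and 1 at least 64-fold lower. Of the 974 higher genes, 405 had reached 10 CPM only in PIB day 9 cells and 569 stood at 10 CPM or more in fibroblasts too. Of the 886 lower genes, 460 had dropped under 10 CPM, but only 21 were under 1 CPM, whereas 92 of the higher genes were under 1 CPM in fibroblasts.

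In summed CPM the higher and lower genes were of like weight. CPM are scaled to a library of fixed size, so summed gains and losses tend to balance through the scaling itself. The 974 higher genes summed to a mean of 132210 CPM in PIB cells and 36573 CPM in fibroblasts. The 886 lower genes summed to 35689 CPM in PIB cells and 125240 CPM in fibroblasts. Among genes at 10 CPM or more, 5695 (59.7%) had a log2 fold change within 0.5 of 0. Of the 7686 that were not called, 4623 had an adjusted p below 0.05 (edgeR) with a change of less than 2-fold. Protein-coding genes made up 946 of the higher and 848 of the lower genes, and lincRNAs 5 and 11.

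**Figure D1:**
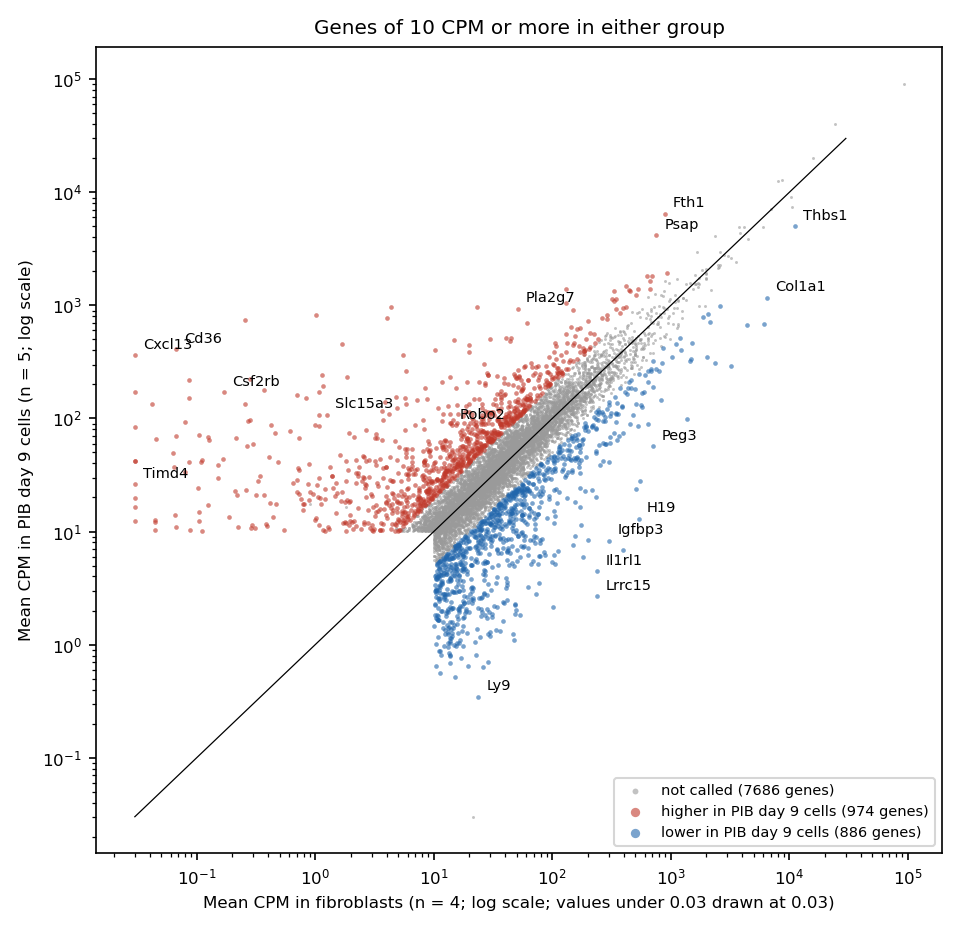
Mean level of each gene of 10 CPM or more in PIB day 9 cells (vertical axis, n = 5) against fibroblasts (horizontal axis, n = 4), both in CPM on log scales, with the line of equal levels. The 974 higher genes spread left to levels near 0 in fibroblasts, while most of the 886 lower genes stay above 1 CPM in PIB day 9 cells.

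The furthest gains were of genes with no or next to no counts in fibroblasts. Cxcl13, a chemokine that draws B cells into lymphoid follicles, had 262, 209.6, 230.1, 278 and 835 CPM in PIB cells, against 0, 0, 0 and 0 CPM in fibroblasts. No fibroblast library held a read, so the change was at least 1310-fold against a floor of 3 counts per library, and replicate 5 was highest. Ctss, the cathepsin that trims the class II invariant chain, had 199.7, 164.1, 187, 188 and 113.1 CPM in PIB cells, against 0, 0, 0 and 0 CPM in fibroblasts, at least 601-fold, with replicate 5 lowest. Cd36, a scavenger receptor for oxidised lipoprotein, fatty acids and dying cells, had 456, 378, 438, 444 and 342 CPM in PIB cells, against 0.178, 0.087, 0 and 0 CPM in fibroblasts. Its log2 fold change was 12.43 ± 0.24 (adjusted p = 3.7e-12), or 13.37 without fibroblast replicate 1. Timd4, a receptor for the phosphatidylserine of dying cells, had 26.8, 19.6, 22, 22.9 and 39.4 CPM in PIB cells, against 0, 0, 0 and 0 CPM in fibroblasts, at least 93.1-fold. In none of these genes did the groups overlap, which was a condition for choosing them. Of all called genes at 10 CPM or more, 962 of the 974 higher and 881 of the 886 lower ones did not overlap.

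Other genes among the 25 furthest gains code for surface receptors, antigen presentation and secreted proteins. The Fc receptors Fcgr2b and Fcgr3 rose by 8.98 ± 0.30 log2 units and 8.95 ± 0.27, the class II genes Cd74 and H2-Aa by 11.46 ± 0.40 log2 units and 9.87 ± 0.38, and the lysozyme gene Lyz2 by 9.67 ± 0.13 log2 units. Replicate 5 was highest for Cd74. Il1b, the inflammatory cytokine, had 75.9, 66.4, 71.8, 73.8 and 38.3 CPM in PIB cells, against 0, 0, 0.182 and 0 CPM in fibroblasts. Chil3, a chitinase-like protein of alternatively activated macrophages, rose by 10.36 ± 1.83 log2 units but was near 0 in 1 library. It had 54.1, 40.7, 64.9, 49.3 and 0.979 CPM in PIB cells, against 0, 0, 0.091 and 0 CPM in fibroblasts. Csf2rb, the common beta chain of the GM-CSF, interleukin 3 and interleukin 5 receptors, had 204, 186, 216, 203 and 46.2 CPM in PIB cells, against 0.178, 0.087, 0.182 and 0.227 CPM in fibroblasts. Its near-identical neighbour Csf2rb2, with which it may share reads, followed at 49.5 CPM in PIB cells against 0.0634 CPM in fibroblasts. Replicate 5 was the low library for Il1b, Chil3, Csf2rb and Csf2rb2, and every one of them was still called without it. Without fibroblast replicate 3, which held the few reads, the log2 fold changes were 12.57 for Il1b and 11.94 for Chil3.

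**Figure D2:**
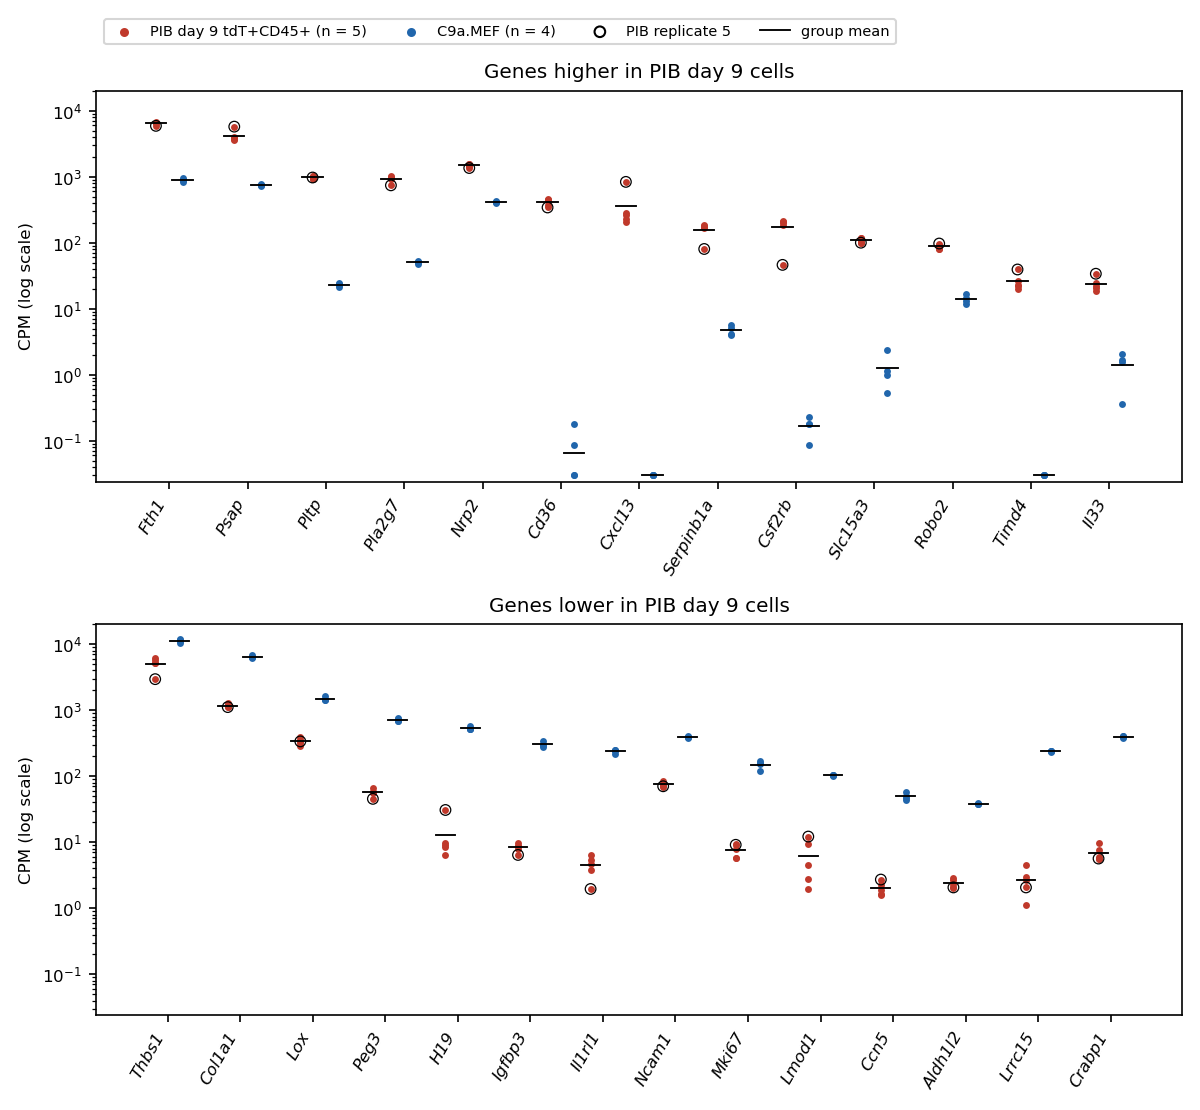
CPM of each library (log scale, values under 0.03 drawn at 0.03) for genes called higher and genes called lower, with PIB day 9 libraries in red at the left of each pair, fibroblast libraries in blue at the right, a bar at each mean and PIB replicate 5 ringed. No pair overlaps, which was a condition for naming most of these genes, and replicate 5 lies apart for Cxcl13, Csf2rb, Serpinb1a and H19.

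The promoters of 3 genes of this kind are shown because they hold the letters of the composite element to which PU.1 can bind together with an IRF. The letters searched were GGAANNGAAA on either strand of RefSeq promoter windows (GRCm38.p6, 250 bases before to 50 after the start), and 2.4% of the 10659 windows of tested genes hold them. Among the 60 genes searched, which had far gains and a window, 5 held a match: Timd4, Fcgr2b, Cybb, Clec7a and Slitrk1. These 5 are not to be set against the 2.4%, since many genes had no window. Where more than 1 window was listed for a gene, only the first was searched, as for Clec7a, which had 2. Some genes with far gains were left out beforehand, by chromosome or because their libraries overlapped between the groups. The 60 are therefore not the furthest gains of all genes with a window. Below are the 250 bases before the start for Timd4 (chr11:46810549-46810798, plus strand, log2 fold change 11.23 ± 0.64), Fcgr2b (chr1:170976072-170976321, minus strand) and Clec7a, the beta-glucan receptor Dectin-1 (chr6:129472780-129473029, minus strand, log2 fold change 7.69 ± 0.37). They read 5′ to 3′ along the gene, with the match in capitals, which begins at position -72, -35 and -66 from the start. In Fcgr2b and Clec7a the match lies on the opposite strand. A match is a description of letters, not evidence of binding.
Timd4: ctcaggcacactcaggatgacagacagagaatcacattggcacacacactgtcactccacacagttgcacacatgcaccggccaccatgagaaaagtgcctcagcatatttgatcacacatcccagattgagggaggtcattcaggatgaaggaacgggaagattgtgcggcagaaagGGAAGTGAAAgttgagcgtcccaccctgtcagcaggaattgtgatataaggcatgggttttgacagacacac
Fcgr2b: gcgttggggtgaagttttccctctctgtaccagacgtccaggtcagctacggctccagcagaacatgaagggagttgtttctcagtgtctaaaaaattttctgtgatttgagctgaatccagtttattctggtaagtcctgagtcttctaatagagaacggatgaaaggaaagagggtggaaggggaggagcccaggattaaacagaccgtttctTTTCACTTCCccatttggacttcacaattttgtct
Clec7a: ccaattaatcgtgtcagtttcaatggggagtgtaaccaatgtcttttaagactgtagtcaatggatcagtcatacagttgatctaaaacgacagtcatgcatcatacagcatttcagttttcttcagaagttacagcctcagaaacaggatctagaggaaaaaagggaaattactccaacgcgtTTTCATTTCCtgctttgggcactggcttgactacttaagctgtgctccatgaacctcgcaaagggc

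The largest gain in CPM of any called gene was that of Fth1, the ferritin heavy chain that stores iron. It had 6835, 6552, 6598, 6528 and 5890.4 CPM in PIB cells, against 831, 889, 946 and 886 CPM in fibroblasts. Psap, the precursor of the saposins that help lysosomal enzymes reach their lipids, had 3976, 3634, 3779.8, 3851 and 5733 CPM in PIB cells, against 717, 745, 769 and 758 CPM in fibroblasts, with replicate 5 highest. Cst3, a secreted inhibitor of cathepsins and an abundant transcript of dendritic cells, averaged 1408 ± 161.02 CPM in PIB cells, against 130.6 ± 9.01 CPM in fibroblasts. The cathepsin Ctsb averaged 1835 ± 189 CPM in PIB cells, against 635 ± 7.80 CPM in fibroblasts. Mpeg1, the pore-forming perforin-2 of phagosomes, averaged 964 ± 63.2 CPM in PIB cells, against 4.33 ± 0.39 CPM in fibroblasts, a log2 fold change of 7.79 ± 0.09. The membrane protein Itm2b, at 1645 ± 209.6 CPM in PIB cells, against 663 ± 5.62 CPM in fibroblasts, and the actin-binding peptide gene Tmsb4x, at 1349 ± 94.6 CPM in PIB cells, against 332 ± 10.4 CPM in fibroblasts, were also among the 12 largest gains.

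Iron and haem genes had 10 higher and 4 lower of 31 tested, median log2 fold change 0.72, and their summed level was 9718 to 10570 CPM in PIB day 9 cells, against 2952 to 3115 CPM in fibroblasts, mostly through Fth1. The iron exporter Slc40a1 (ferroportin) rose by 3.49 ± 0.16 log2 units, haem oxygenase Hmox1 by 1.95 ± 0.06 log2 units, and transferrin, Trf, by 2.81 ± 0.24 log2 units. On the other side Hp, haptoglobin, fell to 2.41 CPM in PIB cells against 17.6 CPM in fibroblasts, and the ferric reductase Steap3 had a log2 fold change of -1.07 ± 0.22, which went under 2-fold without PIB replicate 1 or 5 or fibroblast replicate 2 (-0.95 to -0.99). The light chain Ftl1, at 1645 CPM in PIB cells against 894 CPM in fibroblasts, was not called.

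Lipid genes had 19 higher and 6 lower of 45 tested, median log2 fold change 0.73. Their lower share was near the 11.4% over all genes tested, whereas 10.4% of all genes tested were higher. Genes of uptake, transfer and efflux were among the higher ones. Pltp, the phospholipid transfer protein, averaged 975 ± 55.1 CPM in PIB cells, against 23.3 ± 1.39 CPM in fibroblasts. Lipoprotein lipase, Lpl, averaged 509.8 CPM in PIB cells against 44.9 CPM in fibroblasts. The cholesterol exporter Abcg1 averaged 147.2 CPM in PIB cells against 24.1 CPM in fibroblasts. Lpl and Abcg1 were picked after their values were seen. Genes of fatty acid desaturation were among the lower ones. Fads2 and Fads1, which desaturate fatty acids, had 6.45 CPM in PIB cells against 36.6 CPM in fibroblasts, and 15.2 CPM in PIB cells against 54.8 CPM in fibroblasts. The endocytic receptor Lrp1, at 4972 CPM in PIB cells against 3739 CPM in fibroblasts, was not called. Enzymes of lipid mediators had 9 higher and 2 lower of 22 tested, median log2 fold change 0.15, again with a lower share near that of all genes tested. Pla2g7, which breaks down platelet-activating factor, had 1005, 939, 970.3, 1022 and 740.4 CPM in PIB cells, against 48.2, 51, 51.6 and 52.8 CPM in fibroblasts. Hpgd, which inactivates prostaglandins, rose by 3.95 ± 0.51 log2 units, with 7.72 CPM in replicate 5 against 28.6 to 37.1 CPM in the other PIB libraries. The prostaglandin E synthase Ptges fell to 19.3 CPM in PIB cells against 43 CPM in fibroblasts, and the prostacyclin synthase Ptgis to 3.18 CPM in PIB cells against 20.6 CPM in fibroblasts. Ptgs2, the inducible cyclooxygenase, was not called (279 CPM in PIB cells against 231 CPM in fibroblasts).

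Most tested signalling genes of blood cells were higher. Kinases and adaptors had 21 higher and 1 lower of 34 tested, median log2 fold change 2.79. The whole tested set had 10.4% higher, 11.4% lower and a median of 0.00. Pik3ap1 (BCAP), which links receptors to PI3 kinase, had 54.6, 54.6, 53.3, 68 and 105.6 CPM in PIB cells, against 0.178, 0.174, 0.273 and 0.227 CPM in fibroblasts. It rose by 8.23 ± 0.42 log2 units, and Nckap1l (HEM1), a part of the WAVE complex of blood cells, by 7.91 ± 0.32 log2 units. The lipid phosphatase Inpp5d (SHIP1) rose by 7.74 ± 0.19 log2 units, and Rasgrp3, which loads Ras with GTP, by 4.99 ± 0.14 log2 units. The fibroblast means of these 4 genes were 0.213, 0.152, 0.263 and 2.14 CPM.

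Other kinases and adaptors of that list were not gained. Of its 10 members too low to be tested, 9 stood at 10 CPM or more in every splenic cDC1 library, and none of these 9 passed 1.37 CPM in any PIB day 9 library. Tyrobp (DAP12), the adaptor of many activating receptors, had at most 0.334 CPM in PIB day 9 cells and 0 in fibroblasts, against 49.2 to 60 CPM in cDC1. The kinase Btk had at most 0.796 CPM against 68.1 to 70.6 CPM in cDC1. Outside that list Rac2, the Rac of blood cells, had at most 0.258 CPM against 42.1 to 53.8 CPM in cDC1, and its activator Dock2 at most 0.637 CPM against 456 to 515 CPM. Flt3, the receptor that dendritic cell precursors need, had at most 0.446 CPM against 370 to 401 CPM. Srgn, the granule proteoglycan, had 13 counts over the 5 PIB day 9 libraries, against 2243 over the 3 cDC1 libraries. These 6 genes were picked after their values were seen, and none was tested. In every PIB library a level under 0.222 CPM is fewer than 3 counts.

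Receptors of blood cells were gained in part. G protein-coupled receptors for chemoattractants, purines and lipids had 15 higher and 1 lower of 26 tested, median log2 fold change 2.27. Among the 15 members at 10 CPM or more in either group, 6 were higher and 1 lower, with a median of 0.48. A low gene could pass the filter through 1 group alone, so the first median leans on such genes. Of the 50 members 24 were too low to be tested. Among these, 6 stood at 10 CPM or more in every splenic cDC1 library, and none of the 6 passed 1 CPM in any PIB day 9 library. Cysltr1, for cysteinyl leukotrienes, had 22.9, 16.7, 23.8, 23 and 31 CPM in PIB cells, against 0.266, 0, 0.546 and 0.227 CPM in fibroblasts. Its log2 fold change was 6.46 ± 0.35, or 7.04 without fibroblast replicate 3. The prostaglandin E receptor Ptger2 rose by 5.81 ± 0.19 log2 units, and P2ry14, for UDP-glucose, by 6.01 ± 0.20 log2 units. The adenosine receptor Adora2b, the 1 called lower, fell to 4.24 CPM in PIB cells against 12.9 CPM in fibroblasts. Cytokine and TNF family receptors had 14 higher and 9 lower of 52 tested, median log2 fold change 0.32. After Csf2rb and Csf2rb2 came Csf1r, the receptor of macrophage colony-stimulating factor, at 30 ± 10.3 CPM in PIB cells, against 1.08 ± 0.554 CPM in fibroblasts. Ifngr1, for interferon gamma, rose by 2.54 ± 0.06 log2 units. Il1rl1 (ST2), the receptor of interleukin 33, was among the furthest losses, at 4.69, 6.5, 5.40, 3.76 and 1.96 CPM in PIB cells, against 248, 243, 215 and 252 CPM in fibroblasts. Il33 itself rose to 24 ± 5.91 CPM in PIB cells, against 1.42 ± 0.746 CPM in fibroblasts.

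Solute carriers had 34 higher and 21 lower of 196 tested, median log2 fold change 0.21. These shares, 17.3% higher and 10.7% lower, stood beside 10.4% and 11.4% over all genes tested, so the lower share was near that of the whole set. Slc15a3, which moves histidine and bacterial peptides out of lysosomes, had 117.7, 98, 107.8, 117.9 and 100.2 CPM in PIB cells, against 0.533, 1.13, 2.37 and 0.983 CPM in fibroblasts. The sugar phosphate carrier Slc37a2 rose by 3.55 ± 0.21 log2 units. The neutral amino acid transporter Slc38a4 fell to 1.73 CPM in PIB cells against 28.4 CPM in fibroblasts. Of genes that sense or degrade extracellular nucleotides there were 4 higher and 5 lower of 12 tested, median log2 fold change -0.59. The sign of that median rests on low members. Among the 6 members at 10 CPM or more in either group, 3 were higher and 2 lower, with a median of 0.69. Entpd1 (CD39), which degrades extracellular ATP, rose to 42 ± 4 CPM in PIB cells, against 2.69 ± 0.283 CPM in fibroblasts. Enpp1, which makes pyrophosphate from ATP, fell to 2.07 ± 0.486 CPM in PIB cells, against 13.9 ± 1.11 CPM in fibroblasts. Serine protease inhibitors had 8 higher and 5 lower of 22 tested, median log2 fold change 0.20. Serping1, the inhibitor of the first complement component, rose to 387 CPM in PIB cells against 102.7 CPM in fibroblasts. Serpine2, a thrombin inhibitor, fell to 130 CPM in PIB cells against 389 CPM in fibroblasts. Serpinh1, the collagen chaperone HSP47, was not called (664 CPM in PIB cells against 1146 CPM in fibroblasts). The 5 sex-linked transcripts tested were not called either.

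Haematopoietic and myeloid transcription factors other than those transduced had 16 higher and 3 lower of 63 tested, median log2 fold change 0.46. Ikzf1 (Ikaros), a zinc finger factor of lymphoid and myeloid cells, had 37.1, 33.6, 33, 34.1 and 43.6 CPM in PIB cells, against 1.33, 0.609, 0.546 and 0.378 CPM in fibroblasts. Irf5, which drives inflammatory cytokines, rose by 4.72 ± 0.10 log2 units. Mitf, a regulator of lysosomal genes, rose by 2.09 ± 0.09 log2 units. Klf4 fell to 50.3 CPM in PIB cells against 111.9 CPM in fibroblasts, and Ets1 to 24.3 CPM in PIB cells against 61.3 CPM in fibroblasts. Set against splenic cDC1, Ikzf1 was lower in PIB day 9 cells (38.6 CPM in PIB cells against 162.5 ± 11.3 CPM in cDC1, log2 fold change -2.08 ± 0.10, adjusted p = 1.2e-10). Irf8 was lower too (181 CPM in PIB cells against 1681 ± 91.4 CPM in cDC1, log2 fold change -3.21 ± 0.23, adjusted p = 3e-06).

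Some gains were of genes better known from nerve, tendon or vessel than from blood cells. Robo2, a receptor of the Slit guidance cues, had 89.4, 79.1, 81.5, 92.4 and 97.3 CPM in PIB cells, against 12, 16.7, 13 and 14.7 CPM in fibroblasts. Its ligand Slit2 rose as well, to 772 ± 111.01 CPM in PIB cells, against 264 ± 2.90 CPM in fibroblasts. Neuropilin 2, Nrp2, reached 1483 ± 85.2 CPM in PIB cells, against 415 ± 11.4 CPM in fibroblasts, and the ephrin receptor Epha4 rose by 1.71 ± 0.08 log2 units. Itga8, an integrin of mesenchyme, rose by 2.39 ± 0.07 log2 units, Mkx, a tendon factor, by 3.19 ± 0.17 log2 units, Flt4 (VEGFR3), the lymphatic growth factor receptor, by 2.23 ± 0.11 log2 units, and Lgr4, a receptor of R-spondins, by 2.26 ± 0.07 log2 units. In splenic cDC1 the averages, in CPM of the library total, were 54.3 for Itga8, 14.3 for Slit2, 7.52 for Nrp2 and at most 5.68 for the other 5 genes. Their lists held more lower than higher genes. Axon guidance genes had 10 higher and 23 lower of 64 tested, median log2 fold change -0.34, and mesenchymal receptors 7 higher and 18 lower of 56 tested, median log2 fold change -0.27. Netrin 4, Ntn4, fell to 7.01 CPM in PIB cells against 34.4 CPM in fibroblasts, and the ephrin receptor Ephb2 to 22.1 CPM in PIB cells against 114.6 CPM in fibroblasts.

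**Figure D3:**
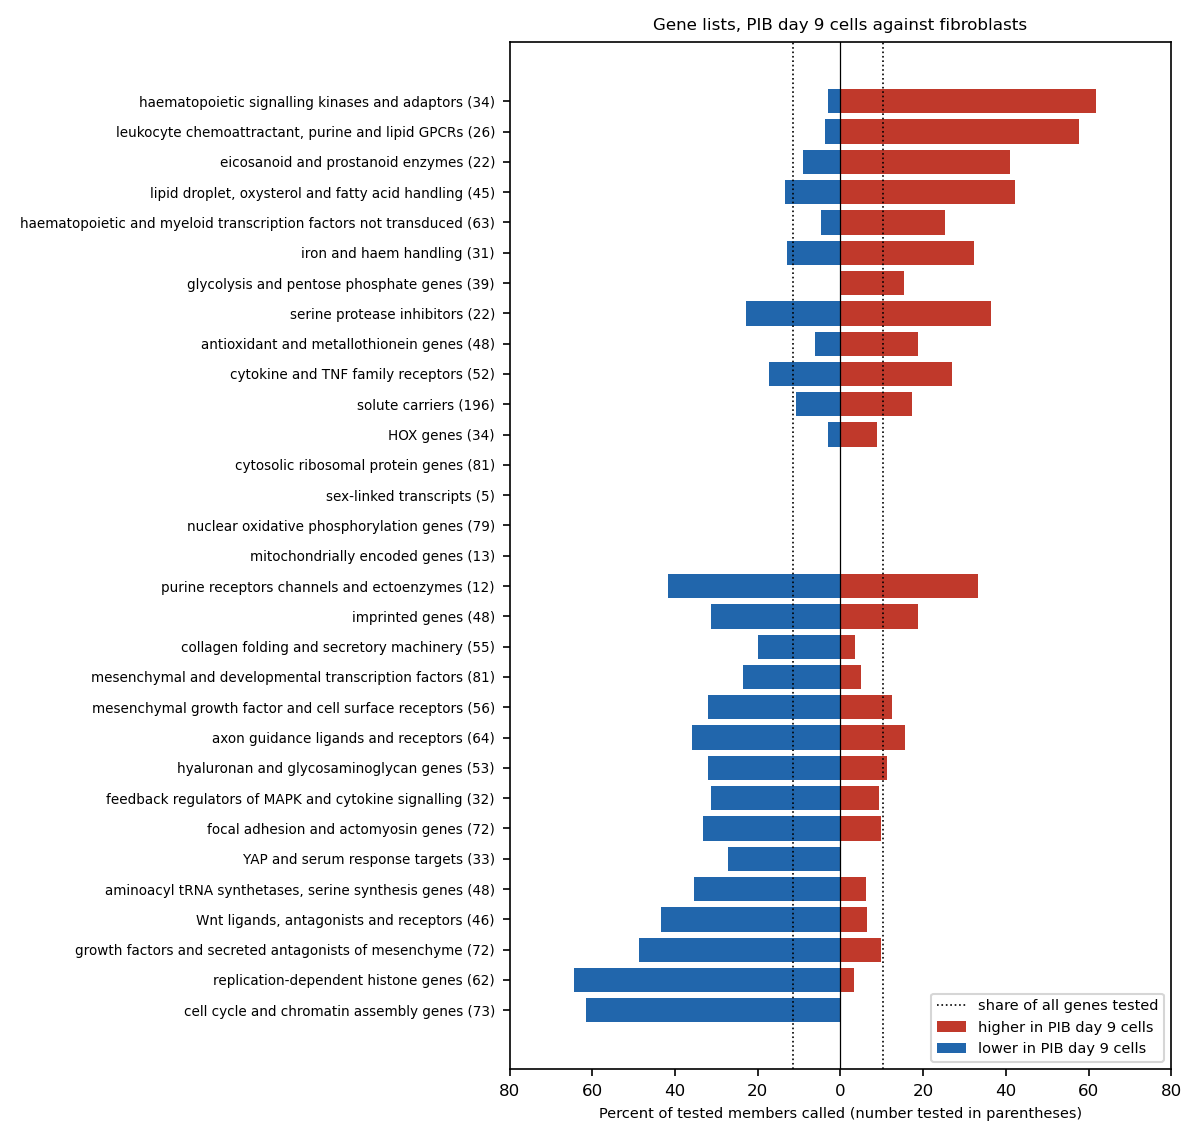
Share of tested members of each gene list called higher (red, to the right) or lower (blue, to the left) in PIB day 9 cells, in percent of the members tested, whose number follows the name. Dotted lines mark the shares over all genes tested, 10.4% higher and 11.4% lower, and the lists run from haematopoietic signalling kinases and adaptors at the top to cell cycle genes at the bottom.

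Among the furthest losses was Lrrc15, a surface protein of activated fibroblasts, which had 2.99, 4.45, 2.7, 1.14 and 2.07 CPM in PIB cells, against 237, 243, 239.8 and 234 CPM in fibroblasts. Its log2 fold change of -6.47 ± 0.20 was the 1 fall of at least 64-fold among genes of 10 CPM or more. Crabp1, which binds retinoic acid inside embryonic cells, had 5.63, 9.71, 7.50, 5.95 and 5.65 CPM in PIB cells, against 412, 394, 372 and 412 CPM in fibroblasts. Igfbp3, which binds insulin-like growth factors, had 8.79, 9.62, 7.95, 8.84 and 6.42 CPM in PIB cells, against 293, 293, 345 and 281 CPM in fibroblasts. Cthrc1, a secreted protein of matrix-producing fibroblasts, had a log2 fold change of -5.30 ± 0.23. Serpina3n, an acute-phase inhibitor of serine proteases, had a log2 fold change of -4.99 ± 0.42, or -5.84 without PIB replicate 5. The cell-resident inhibitor Serpinb1a rose to 156.2 ± 42.9 CPM in PIB cells, against 4.76 ± 0.831 CPM in fibroblasts. Ly9, a receptor of lymphocytes, had 0.256, 0.267, 1.12, 0.0875 and 0 CPM in PIB cells, against 2.58, 7.48, 8.10 and 76.1 CPM in fibroblasts. Its log2 fold change of -5.92 ± 1.43 was -3.97 without fibroblast replicate 4 and -7.12 without PIB replicate 3.

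Matrix genes parted from each other. Col1a1, the main chain of type I collagen, had 1156, 1293, 1178, 1128 and 1113 CPM in PIB cells, against 6263, 6368, 6892 and 6330.3 CPM in fibroblasts, a log2 fold change of -2.46 ± 0.06. Col1a2, whose product pairs with it, had 4099, 4226, 4290.4, 4079.8 and 5128 CPM in PIB cells, against 3713, 3806, 4037 and 3807 CPM in fibroblasts, and was not called (log2 fold change 0.18 ± 0.07). Fn1, fibronectin, picked after its values were seen, was higher by less than 2-fold, at 12860.0 ± 1159.9 CPM in PIB cells, against 8649 ± 187 CPM in fibroblasts, and was not called. Tenascin C, Tnc, had 600.1, 706, 602, 568 and 927 CPM in PIB cells, against 5965, 6244, 6331 and 6039 CPM in fibroblasts. Thrombospondin 1, Thbs1, the largest loss in CPM, had 5248, 6197, 5662, 5129.7 and 2948 CPM in PIB cells, against 10576, 10968, 11858 and 11389 CPM in fibroblasts. In Thbs1 replicate 5 was lowest, and without it the log2 fold change was -1.02. Lysyl oxidase, Lox, which cross-links collagen, fell to 338 ± 37.9 CPM in PIB cells, against 1490.0 ± 85 CPM in fibroblasts. Among genes that fold and process collagen there were 2 higher and 11 lower of 55 tested, median log2 fold change -0.48. Hyaluronan and glycosaminoglycan genes had 6 higher and 17 lower of 53 tested, median log2 fold change -0.21. Cemip, which breaks down hyaluronan, fell to 22.7 CPM in PIB cells against 189 CPM in fibroblasts. The syndecan Sdc3 rose to 851 CPM in PIB cells against 370.0 CPM in fibroblasts, with a log2 fold change of 0.996 without replicate 5, under the threshold.

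Secreted growth factors were mostly lost or uncalled. Growth factors and antagonists had 7 higher and 35 lower of 72 tested, median log2 fold change -0.83, and summed to 5918 to 6499 CPM in PIB day 9 cells, against 11350 to 12690 CPM in fibroblasts. Angpt2, which loosens vessels, fell to 0.816 CPM in PIB cells against 22.8 CPM in fibroblasts, and midkine, Mdk, to 1.17 CPM in PIB cells against 24.6 CPM in fibroblasts. Gdf10, of the BMP family, fell to 1.06 CPM in PIB cells against 22.3 CPM in fibroblasts. The glypican Gpc3, of the glycosaminoglycan list, fell to 2.47 CPM in PIB cells against 41.3 CPM in fibroblasts. Tgfb1 and Il6, 2 of the 7 higher members, were higher in all 5 PIB libraries than in any fibroblast library, as the choice of named members required. Tgfb1 had 181, 157.9, 168, 161.2 and 153.7 CPM in PIB cells, against 37.7, 37.9, 43.3 and 39.9 CPM in fibroblasts. Il6 averaged 27.8 ± 8.33 CPM in PIB cells, against 8.96 ± 0.745 CPM in fibroblasts. The Tgfb1 relative Tgfb2 fell to 2.98 CPM in PIB cells against 16.2 CPM in fibroblasts. Wnt pathway genes had 3 higher and 20 lower of 46 tested, median log2 fold change -0.85. The antagonists Dkk3 and Sfrp2 fell, Dkk3 to 24.4 CPM in PIB cells against 172 CPM in fibroblasts and Sfrp2 to 5.44 CPM in PIB cells against 50.3 CPM in fibroblasts. The log2 fold change of Sfrp2 was -3.22 ± 0.63, or -4.19 without PIB replicate 1. The Wnt-induced Ccn5 fell to 2.01 CPM in PIB cells against 49.7 CPM in fibroblasts. The ligand Wnt7b was not called (1570.0 CPM in PIB cells against 1463 CPM in fibroblasts). Dkk2, at 247 CPM in PIB cells against 95.5 CPM in fibroblasts, was 1 of 3 higher, and lost its call in the fit over all groups (log2 fold change 1.39, adjusted p = 0.111 by edgeR).

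Genes of the contractile fibres were among the losses. Acta2, smooth muscle actin, had 82.8, 119.1, 79.5, 77.8 and 133.8 CPM in PIB cells, against 1336, 1389, 1367 and 1439 CPM in fibroblasts. Log2 fold changes were -4.56 ± 0.28 for Cnn1, calponin, -4.12 ± 0.41 for Lmod1, leiomodin, and -3.38 ± 0.13 for the myosin light chain Myl9. Focal adhesion and actomyosin genes had 7 higher and 24 lower of 72 tested, median log2 fold change -0.68. Targets of YAP and serum response factor had 0 higher and 9 lower of 33 tested, median log2 fold change -0.45. In that second list Ccn2 fell to 70.1 CPM in PIB cells against 364 CPM in fibroblasts, and Ccn1 to 125.9 CPM in PIB cells against 575 CPM in fibroblasts. Axl, which reads the phosphatidylserine of dying cells through a bridging protein, was not called at 1195 CPM in PIB cells against 642 CPM in fibroblasts. Of developmental transcription factors there were 4 higher and 19 lower of 81 tested, median log2 fold change -0.26. Sox11 fell to 7.17 ± 1.29 CPM in PIB cells, against 62 ± 1.69 CPM in fibroblasts. Tead2 fell to 8.47 CPM in PIB cells against 58.2 CPM in fibroblasts, and Twist2 to 49.9 CPM in PIB cells against 235 CPM in fibroblasts. Hand2, a factor of limb and heart, rose to 42.2 CPM in PIB cells against 17.6 CPM in fibroblasts.

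HOX genes, whose pattern records position along the body axis, were mostly uncalled, as were 80.5% of all genes of 10 CPM or more. They had 3 higher and 1 lower of 34 tested, median log2 fold change 0.00, beside 10.4% higher and 11.4% lower over all genes tested. The higher share was thus near that of the whole set, and the higher count was 2 to 6 over the alternatives. The summed level of the HOX genes was 378.5 to 427.2 CPM in PIB day 9 cells, against 376.4 to 408.5 CPM in fibroblasts. Hoxc6, the most abundant that was not called, had 39.6 CPM in PIB cells against 39.7 CPM in fibroblasts. In replicate 5 Hoxd11, picked after its values were seen and called higher at 20.4 CPM in PIB cells against 6.21 CPM in fibroblasts, had 3.48 CPM against 24 to 25.5 CPM in the other PIB libraries.

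Imprinted genes had 9 higher and 15 lower of 48 tested, median log2 fold change -0.06. Such genes are read mainly from 1 parental copy in at least some tissues, and many are high in embryonic growth. Which copy was read in these cells was not tested. H19 had 6.48, 9.89, 9.22, 8.49 and 30.8 CPM in PIB cells, against 517, 522, 573 and 527 CPM in fibroblasts. Replicate 5 was highest and still under every fibroblast library, and the log2 fold change was -5.41 ± 0.43. Peg3 had 56.7, 58.3, 66.4, 56.4 and 45.3 CPM in PIB cells, against 734, 752, 674 and 696 CPM in fibroblasts. Igf2, the fetal growth factor, fell to 60.2 CPM in PIB cells against 306 CPM in fibroblasts, and the noncoding Meg3 to 63.9 CPM in PIB cells against 355 CPM in fibroblasts, both picked after their values were seen. Dlk1 fell to 3.16 CPM in PIB cells against 40.6 CPM in fibroblasts, a log2 fold change of -3.77 ± 0.45, or -4.52 without PIB replicate 5. Peg10 and Ube3a, the ubiquitin ligase, were higher, Peg10 with 76.9 CPM in PIB cells against 25.9 CPM in fibroblasts and Ube3a with 257 CPM in PIB cells against 91.1 CPM in fibroblasts. Gnas, the most abundant that was not called, had 923 CPM in PIB cells against 929.6 CPM in fibroblasts.

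No gene of the cell cycle list was higher. Of cell cycle and chromatin assembly genes there were 0 higher and 45 lower of 73 tested, median log2 fold change -1.73. Replication-dependent histone genes had 2 higher and 40 lower of 62 tested, median log2 fold change -2.35. Mki67, the proliferation antigen Ki-67, had 5.80, 5.70, 9.52, 7.88 and 9.13 CPM in PIB cells, against 154.4, 160, 118.9 and 167.4 CPM in fibroblasts. Cyclin B1, Ccnb1, fell to 0.809 CPM in PIB cells against 13.8 CPM in fibroblasts. The linker histone Hist1h1b had a log2 fold change of -4.44 ± 0.17. Hist1h1c, a linker histone also made outside S phase, rose to 406 ± 15.8 CPM in PIB cells, against 190.3 ± 7.92 CPM in fibroblasts. Histone genes are near-identical copies that can share reads, so single members are uncertain. Ccnd2, cyclin D2, was not called (1229.9 CPM in PIB cells against 1077 CPM in fibroblasts). In splenic cDC1 Mki67 was higher than in PIB day 9 cells (8.09 CPM in PIB cells against 226 ± 37.9 CPM in cDC1, log2 fold change -4.80 ± 0.17, adjusted p = 3e-10).

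Genes of amino acid supply and of the integrated stress response had 3 higher and 17 lower of 48 tested, median log2 fold change -0.62. Aldh1l2, a mitochondrial folate enzyme, had 2.64, 2.85, 2.02, 2.36 and 2.07 CPM in PIB cells, against 37.7, 38, 38.8 and 37.7 CPM in fibroblasts. The serine synthesis enzyme Psat1 and the amino acid transporter Slc7a5 fell, Psat1 to 6.93 CPM in PIB cells against 34.2 CPM in fibroblasts and Slc7a5 to 7.54 CPM in PIB cells against 23.4 CPM in fibroblasts. Atf3 and Nupr1, 2 of the 3 higher members, were both stress-induced factors, Atf3 with 42.9 CPM in PIB cells against 2.86 CPM in fibroblasts and Nupr1 with 136.4 CPM in PIB cells against 36.9 CPM in fibroblasts. Antioxidant genes had 9 higher and 3 lower of 48 tested, median log2 fold change 0.46. Peroxiredoxin 1, Prdx1, rose to 729 CPM in PIB cells against 201 CPM in fibroblasts. The selenium carrier Selenop rose to 228 CPM in PIB cells against 50.2 CPM in fibroblasts. Glycolysis and pentose phosphate genes had 6 higher and 0 lower of 39 tested, median log2 fold change 0.07. The hexose transporter Slc2a6 rose to 28.2 CPM in PIB cells against 2.46 CPM in fibroblasts. Feedback regulators of MAPK and cytokine signals had 3 higher and 10 lower of 32 tested, median log2 fold change -0.11. Dusp4 and Spry1, which restrain ERK signalling, fell, Dusp4 to 2.99 CPM in PIB cells against 21.1 CPM in fibroblasts and Spry1 to 6.93 CPM in PIB cells against 42 CPM in fibroblasts. Socs3, which restrains cytokine receptors, rose to 138.5 CPM in PIB cells against 43 CPM in fibroblasts.

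The machinery shared by all cells was not called. None of 79 nuclear oxidative phosphorylation genes was higher or lower, with a median log2 fold change of 0.11, and Atp5b, of ATP synthase, had 403 CPM in PIB cells against 403 CPM in fibroblasts. None of 81 ribosomal protein genes was called, though their median was -0.34 and their summed level 18410 to 20210 CPM in PIB day 9 cells, against 24620 to 25620 CPM in fibroblasts. None of 13 mitochondrially encoded genes was called, with sums of 3968 to 10100 CPM in PIB cells against 4651 to 5684 CPM in fibroblasts, the lowest being PIB replicate 5. The mitochondrial share of counts differed between the groups by 0.288 percentage points (0.833 ± 0.241% in PIB cells and 0.545 ± 0.0483% in fibroblasts, exact permutation test, two-sided p = 0.0476, where 0.00794 is the smallest it can give), and that call was lost on leaving out any library but replicate 5. Among the most abundant genes with little change, Actb, beta actin, had 4926 CPM in PIB cells against 4144 CPM in fibroblasts. Vimentin, Vim, had 2971 CPM in PIB cells against 2623 CPM in fibroblasts.

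The changes had different courses over the days. In CPM of the library total, Cxcl13 averaged 0 ± 0, 6.88 ± 1.91, 187 ± 14.9 and 361 ± 278 CPM in fibroblasts and on days 3, 6 and 9. The day 9 mean rests in large part on replicate 5, and without it was 237 ± 29.8 CPM (SD, n = 4). Pla2g7 averaged 52 ± 1.78, 201 ± 26.8, 710.0 ± 29.7 and 913 ± 92.9 CPM in the same order. Both were higher on day 9 than on day 3, Cxcl13 by 5.44 ± 0.59 and Pla2g7 by 1.98 ± 0.09 as log2 fold changes, in a comparison that called 3.67% of genes higher and 8.47% lower. Timd4 was at its day 9 level by day 6, at 0 ± 0, 14.7 ± 1.48, 26.5 ± 1.60 and 25.7 ± 8.48 CPM, and the day 9 to day 3 difference was not called. Serpinb1a was highest on day 3, at 4.86 ± 0.852, 359 ± 37.8, 230.2 ± 8.18 and 151.9 ± 39.7 CPM, and lower on day 9 (143.2 CPM on day 9 against 391 ± 10 CPM in day 3 cells, log2 fold change -1.45 ± 0.21, adjusted p = 0.00087). Among losses, Lrrc15 and Peg3 had most of their fall by day 3. Lrrc15 averaged 243 ± 4.2, 4.55 ± 1.29, 7.31 ± 2.36 and 2.60 ± 1.15 CPM, and Peg3 729 ± 41.4, 77.9 ± 18.6, 85.3 ± 12.6 and 55.3 ± 6.87 CPM. Igf2 fell later, at 312 ± 15.2, 190.2 ± 27.1, 117.7 ± 6.78 and 59 ± 6.43 CPM. It was lower on day 9 than on day 3 (55.2 CPM on day 9 against 207 ± 5.98 CPM in day 3 cells, log2 fold change -1.90 ± 0.07, adjusted p = 6.8e-09). Thbs1 was lowest on day 3, at 11430.0 ± 477, 3020.0 ± 637, 5024 ± 487 and 4903 ± 1137 CPM, and its day 9 to day 3 difference was not called.

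**Figure D4:**
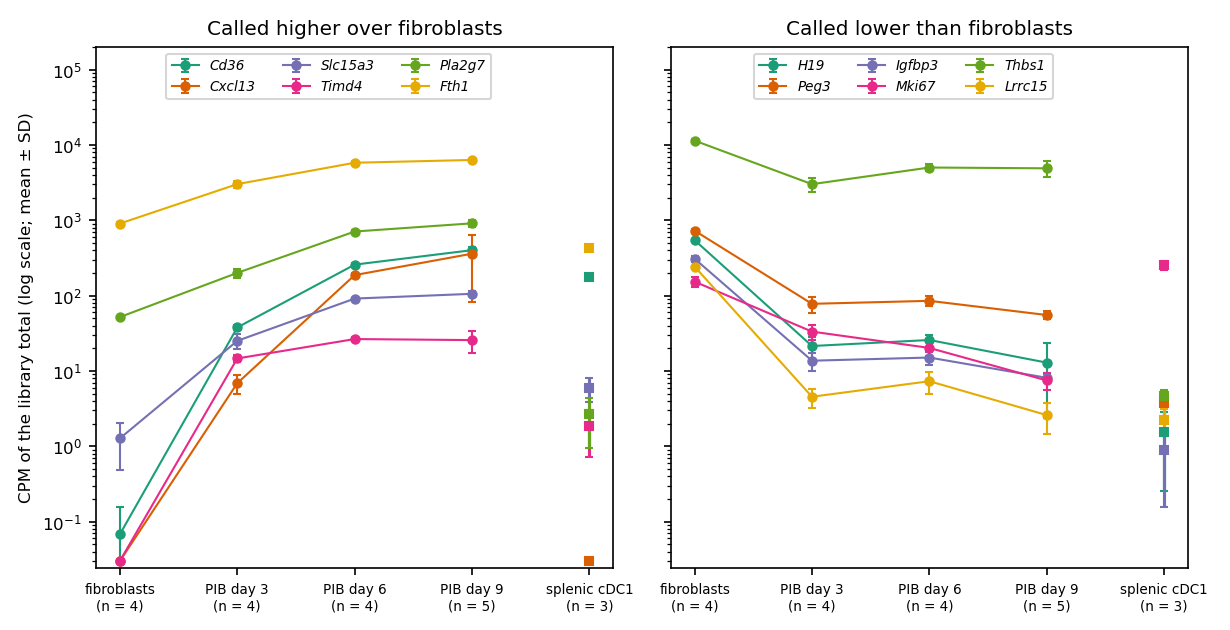
Mean CPM of the library total (log scale, bars show the standard deviation, values under 0.03 drawn at 0.03) in fibroblasts, in double positive PIB cells of days 3, 6 and 9, and in splenic cDC1 as squares, for 6 genes called higher and 6 called lower on day 9. Pla2g7 and Cd36 climb through day 9, the day 9 mean of Cxcl13 is 237 CPM without replicate 5, Timd4 levels off by day 6, and Lrrc15 and H19 are low from day 3.

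The same genes were set against the other cocktail. Against PIP day 9 cells, which share only Spi1, 10.6% of genes were higher and 11% lower in PIB day 9 cells. Cxcl13 was close to absent in PIP cells (342 CPM in PIB cells against 0.0477 ± 0.0551 CPM in PIP cells, log2 fold change 12.67 ± 1.08, adjusted p = 2.4e-05). Fn1 was lower there (12090.0 CPM in PIB cells against 384 ± 56 CPM in PIP cells, log2 fold change 4.98 ± 0.12, adjusted p = 2.3e-12), as was Col1a1 (1103 CPM in PIB cells against 171 ± 14.3 CPM in PIP cells, log2 fold change 2.69 ± 0.08, adjusted p = 8.8e-12). Robo2 followed the same order (82.7 CPM in PIB cells against 3.38 ± 0.445 CPM in PIP cells, log2 fold change 4.59 ± 0.11, adjusted p = 1.9e-12). Fth1 differed by less than 2-fold and was not called (6093 CPM in PIB cells against 5719 ± 486 CPM in PIP cells, log2 fold change 0.09 ± 0.07, adjusted p = 0.32). Timd4 was not called either (24.6 CPM in PIB cells against 18.3 ± 0.792 CPM in PIP cells, log2 fold change 0.42 ± 0.18, adjusted p = 0.068). Abcg1 was lower in PIB than in PIP day 9 cells (138.3 CPM in PIB cells against 426 ± 30.3 CPM in PIP cells, log2 fold change -1.62 ± 0.16, adjusted p = 1.8e-05).

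Spleen cells differed from PIB cells in far more genes. How many of these lie at low levels in cDC1 was not tested, and the 6130 lower genes became 12656 with no low-count filter. Against splenic cDC1, where 25.4% of genes were higher and 32.2% lower in PIB day 9 cells, Ctss was not called (181 CPM in PIB cells against 243 ± 8.88 CPM in cDC1, log2 fold change -0.43 ± 0.15, adjusted p = 0.023). It was lower than in spleen cells by less than 2-fold, whereas several iron, lipid and matrix genes lay far above them. Pltp was higher in PIB day 9 cells (1036 CPM in PIB cells against 1.74 ± 0.756 CPM in cDC1, log2 fold change 9.25 ± 0.19, adjusted p = 1.7e-14), as was Pla2g7 (994 CPM in PIB cells against 2.33 ± 1.47 CPM in cDC1, log2 fold change 8.75 ± 0.27, adjusted p = 2.8e-10). Fth1 was higher too (6888 CPM in PIB cells against 379 ± 9.36 CPM in cDC1, log2 fold change 4.18 ± 0.09, adjusted p = 3.3e-14), and so was Fn1 (13668 CPM in PIB cells against 7.82 ± 2.54 CPM in cDC1, log2 fold change 10.77 ± 0.22, adjusted p = 4.8e-14). Spleen and culture, genotype and sort cannot be told apart in that comparison.

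Of the 6 genes that varied most among the 5 PIB libraries, 4 stood far higher in replicate 5: Apol8, Ccdc184, Flvcr2 and Tll2. The others, Ly9 and Reg3g, were low in every PIB library. The log2 fold change of Reg3g was -5.98 without replicate 5 and ran from -5.99 to -4.67 over the alternatives, so replicate 5 weighed on it too. Apol8, an apolipoprotein, had 1.37, 0.98, 2.47, 1.14 and 76.8 CPM in PIB cells, against 1.95, 1.48, 1.91 and 1.89 CPM in fibroblasts, and was not called. The membrane transporter Flvcr2 had 3.16, 2.40, 3.97, 3.06 and 41.4 CPM in PIB cells, against 5.42, 4.09, 3.91 and 5.60 CPM in fibroblasts, and was not called. Their log2 fold changes, 3.14 ± 1.70 and 1.13 ± 1.00, were -0.26 and -0.59 without that library. Ccdc184 had 1.37, 1.87, 2.92, 1.05 and 80.9 CPM in PIB cells, against 0.799, 0.522, 1.55 and 0.756 CPM in fibroblasts. Tll2 had 0.939, 1.87, 0.75, 2.01 and 23.6 CPM in PIB cells, against 3.64, 5.13, 5.37 and 35.8 CPM in fibroblasts. Neither was called with all libraries (log2 fold changes 4.23 ± 1.88 and -1.20 ± 1.21). Without replicate 5 both were, at 1.01 and -3.21.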

How the data were processed

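Total RNA of 5000 sorted cells per extraction was made into stranded libraries with 13 to 14 PCR cycles, per the labels' protocols. Per the submitters' processing notes the build was mm10, and the tools named there include STAR 2.7.9a and Salmon 1.10.1. The counting step, its annotation and its strand setting are not given in the sources used here, so reads of antisense and overlapping genes may be mixed. The authors deposited raw read counts per gene for 57010 identifiers, of which 52029 matched a gene name and 4981 (8.96 to 15.2% of counts) did not. Unnamed identifiers stayed in library sizes and tests.

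Counts of the 9 libraries were filtered by filterByExpr, scaled by TMM and tested with edgeR 4.0.16 (R 4.3.3), with Benjamini-Hochberg adjustment over all 15776 genes. CPM use the TMM-scaled library size within each comparison, or the plain total where stated. Calls needed both an adjusted p below 0.05 and a 2-fold change. Named genes were the transduced factors, the 25 furthest gains and losses, the 12 largest in CPM, up to 4 called each way and the most abundant uncalled member of each list, the 10 most abundant uncalled and the 6 most variable; others are marked. The furthest and largest changes and the called list members were taken only from genes whose libraries did not overlap between the groups. Genes, lists and members were chosen with earlier results of these data known. Library measures were compared by exact permutation. Alternatives were DESeq2 1.42.0 and its size factors, no low-count filter, a replicate block, 1 fit over all groups, other level and fold thresholds and leaving out each library. The tests were checked on simulated data. RefSeq promoter windows matched 78% of the higher and 70.3% of the lower genes at 10 CPM or more, under 80%, so the comparison of motif shares between them is void and not given. Some members and 1 gene list are not reported here.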

Additional observations from a re-analysis of the deposited data

Results flagged for a closer look

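In groups of 4 or 5 libraries, 26 sets of values, 17.2% of those looked at, held 1 library far from the rest by Dixon's criterion, where chance gives about 1 in 20. In 19 of the 26 that library was PIB replicate 5.

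PIB replicate 5 was above the other 4 PIB libraries in the transduced factors: Spi1 had 268.2 CPM there against 168.5 to 179.6 CPM, Irf8 265.1 against 128.8 to 156.4 CPM, and Batf3 36.21 against 17.77 to 21.11 CPM. It was also above them for Cxcl13 (835.4 against 209.6 to 277.8 CPM), Cd74 (1128 against 606.3 to 734 CPM), Psap (5733 against 3634 to 3976 CPM) and Itm2b (2011 against 1506 to 1625 CPM). Of genes called lower, H19 had 30.78 against 6.484 to 9.886 CPM, Clca3a1 11.53 against 3.825 to 5.611 CPM, and Serpina3n 5.328 against 0.7499 to 1.247 CPM. The uncalled Col1a2 had 5128 against 4080 to 4290 CPM.

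The same library was below the other 4 for both cytokine receptor chains, Csf2rb with 46.22 against 186.1 to 216.1 CPM and Csf2rb2 with 15.01 against 49.25 to 62.83 CPM. It was also low for Il1b (38.28 against 66.44 to 75.93 CPM), Ms4a6d (29.58 against 43.35 to 45.94 CPM), Ctsd (1109 against 1869 to 2114 CPM) and Tmsb4x (1187 against 1367 to 1438 CPM). Mitochondrial RNA was low there: mt-Rnr1 had 10870 against 21570 to 22760 CPM, and the mitochondrially encoded share of counts was 0.4067% against 0.9053 to 0.997%. The cause was not tested.

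In PIB replicate 3, Egfl6 had 2.25 CPM against 0.6826 to 0.9787 CPM in the other PIB libraries. Among fibroblast libraries, replicate 3 was high for Col1a1 (6892 against 6263 to 6368 CPM), Ctsd (744.9 against 678.3 to 688.3 CPM) and Pcm1 (3217 against 2340 to 2408 CPM). Fibroblast replicate 4 was high for Ly9 (76.15 against 2.576 to 8.1 CPM) and for total counts (about 12970000 against 10880000 to 11200000), and low for Ube3c (4208 against 4503 to 4558 CPM).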

How the results depend on the processing

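The higher and lower counts at 10 CPM ranged from 952 to 1019 and from 832 to 928 over the alternatives in normalization, filter, model and libraries; with the level set at 5 or 20 CPM they were 1174 and 808 higher, 1172 and 614 lower. Of the 1860 calls, 1778 to 1853 were kept under each alternative and no sign changed. At 4-fold or more, 717 genes over all tested were higher and 653 lower. Against PIB day 3 cells the 1330 lower genes became 2273 with no low-count filter and 770 with the replicate block, and 875 to 1664 on leaving out a library, the lowest without day 3 replicate 4. Against cDC1 the 6130 lower genes became 12656 with no filter. The difference in mitochondrial share ran from 0.247 to 0.394 percentage points on leaving out a library, and lost its call in all but the case without PIB replicate 5. The difference in the share of unnamed identifiers, -1.19 percentage points (exact permutation p = 0.437), ran from -2.27 to -0.702 and was called without PIB replicate 1 (p = 0.0286). Replicate numbers did not pair the libraries (correlations of deviations 0.077, 0.078, 0.037 and -0.071), and with the replicate block 970 genes were higher and 905 lower at 10 CPM. In at least 1 alternative Fzd1, Sdc3, Slc39a14 and Steap3 lost their call and Cbl, Vcan and mt-Co1 gained one at folds close to 2. In 1 fit over all groups Dkk2, Hs3st1 and Prdm1 kept their folds and lost the call through adjusted p (0.111, 0.102 and 0.262, edgeR). Without PIB replicate 5 Ccdc184 and Tll2 gained a call, Tll2 also with the replicate block. Genes under 3 counts per library are not detectable at this depth.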
